A study of Mus musculus with 12 samples.

Results

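A set of 6 genes of the aryl hydrocarbon receptor (AHR) and kynurenine axis was followed through B-cell activation and plasmablast differentiation. They are *Ahr*, *Arnt*, *Ahrr*, *Tiparp*, *Kmo* and *Kynu*, 6 of the 27179 genes in the deposited count table, and they were found by their Entrez identifiers (11622, 11863, 11624, 99929, 98256 and 70789). They were chosen by name and by their counts, because *Ahr* and *Kynu* differ in opposite directions between expanded B cells and plasmablasts. That difference, and the values at those stages that selected the genes, are therefore given as a description without a test. RNA-Seq of polyA RNA was available for 12 libraries, 2 biological replicates for each of 6 stages. All cells came from the spleens of male C57BL/6 mice, 6 to 12 weeks of age, and no stage carried a mutation. The paper describes the background of its mice as C57BL/6 Pep3b. Naive B cells were untreated and sorted as TCRβ-B220+IgM+ cells with high IgD. For every other stage B cells were isolated by negative selection and cultured with 25 μg/ml lipopolysaccharide (LPS) of Salmonella typhosa. Per the paper, the day 4 cultures were set up at a lower cell density than those of 3, 10 and 33 h. From 33 h to day 4, density and stage thus changed together, and the part of density was not tested. Undivided CD69+ cells with the highest content of CellTrace Violet, a dye that is diluted by division, were sorted after 3, 10 and 33 h. On day 4, CD138- cells that still carried CD22 were sorted as expanded B cells, and CD138+ cells without CD22 as plasmablasts.

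AHR is a transcription factor of the bHLH-PAS family that is held in the cytoplasm by heat shock protein 90 and p23 until it binds a ligand. It then enters the nucleus, pairs with ARNT and activates genes such as *Cyp1a1*, *Cyp1b1*, *Ahrr* and *Tiparp*, of which the last pair encode proteins that restrain the receptor. Kynurenine, made from tryptophan by IDO or TDO enzymes, is among its natural ligands. KMO hydroxylates kynurenine, KYNU cleaves kynurenine and its hydroxylated form, HAAO opens the ring of the product, and the pathway ends in NAD. Kynurenine transaminases divert kynurenine to kynurenic acid, another AHR ligand.

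Total counts ran from 23026619 to 60585587 per library, and all 6 genes passed the filter on low counts, as did 12750 of the 23700 genes kept. Levels are given as RPKM, reads per kilobase of exon scaled to the size of each library, so that genes of different length can be compared, and changes are log2 fold changes with their standard errors. A gene was called differentially expressed (DE) when edgeR's glmTreat test placed its fold change above 1.5 with a Benjamini-Hochberg adjusted p below 0.05. The replicates of the 3 h stage differed most, with an SD of the log2 ratio between replicates of 0.53, against 0.3 to 0.39 at the other stages. Standard errors and p-values use a spread shared by all stages. Markers of the day 4 sort separated its populations. *Cd22* stood at 438 and 415 CPM (counts scaled to the library total) in expanded B cells and at 1.86 and 1.59 CPM in plasmablasts, and *Jchain* at 17300 and 16400 CPM in plasmablasts against at most 781 CPM elsewhere. *Sdc1*, which encodes CD138, stood at 145 and 147 CPM in plasmablasts and 3.88 and 5.22 CPM in expanded cells, with 26.1 and 23.6 CPM in naive cells. Not every plasmablast marker was confined to plasmablasts, since *Irf4* was highest after 3 h, at 3320 and 2430 CPM against 1130 and 1360 CPM in plasmablasts, and the 5 markers summed to 3450 and 2610 CPM after 3 h and to 23100 and 22800 CPM in plasmablasts. The naive libraries also held RNA of other cells, although the gate was set on B220+ cells. The summed level of 11 myeloid markers, with none at 0, was 321 and 144 CPM there against 3.18 and 5.78 CPM after 3 h, and 4 erythroid markers summed to 216 and 164 CPM in naive cells and to at most 1.72 CPM at any other stage. In bulk RNA, fewer cells of a type and less RNA per cell cannot be told apart.

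*Ahr*, the receptor itself (chr12:35497979-35534989, GRCm38.p6), followed a course with 2 high phases. It measured 2.31 and 2.48 RPKM in naive cells, 5.62 and 7.36 after 3 h, and 6.93 and 6.71 after 10 h. It then measured 0.734 and 1.2 RPKM after 33 h, 2.05 and 2.16 in expanded cells, and 7.58 and 6.45 in plasmablasts. The early and the late high phase thus reached like levels, around the median of tested genes (percentiles 47.9 to 48.7), and plasmablasts, 10 h and 3 h cells had overlapping replicates. The rest of the order ran from naive to expanded to 33 h cells without overlap between neighbours. *Ahr* rose from naive to 3 h by 1.45 ± 0.19 on the log2 scale (SE, n = 2 against 2; glmTreat adjusted p = 0.00023). From 3 to 10 h the difference was 0.07 ± 0.18 (adjusted p = 1), a value near 0 that turned to -0.01 with DESeq2's size factors. From 10 to 33 h, before the first division, *Ahr* fell by 2.84 ± 0.19 (adjusted p = 6.1e-07), to 0.967 ± 0.329 RPKM (SD, n = 2), its lowest level. Only 95 of the 12750 tested genes had a larger fall in this step. In the later steps, which the choice of genes used, *Ahr* was 1.15 ± 0.2 log2 units higher in expanded cells than after 33 h, and 1.73 ± 0.18 higher in plasmablasts than in expanded cells.

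*Arnt*, which encodes the partner of AHR on DNA (chr3:95434367-95497240), showed the flattest course of the 6. Its lowest and highest libraries measured 13 RPKM after 33 h and 19.5 RPKM in naive cells, and the highest stage mean was 1.36 times the lowest. *Arnt* was not DE at any of the 4 transitions tested. The widest difference was 0.42 ± 0.09 from 33 h to expanded cells (glmTreat adjusted p = 1). The quasi-likelihood F-test, a test against no change, gave adjusted p = 0.0028 for it. The direction of *Arnt* from 3 to 10 h (-0.22) turned to 0.11 when libraries were scaled by library size alone. *Ahr* therefore ran from 0.0722 ± 0.0281 of the level of *Arnt* after 33 h to 0.453 ± 0.0333 after 10 h, and the receptor stayed below its partner in each of the 12 libraries.

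*Ahrr* encodes the AHR repressor, which competes with AHR for ARNT (chr13:74211118-74292331). In naive and 3 h cells it had 1 to 3 counts per library, and no fold between these stages is given. Counts were then 26 and 16 after 10 h, 94 and 71 after 33 h, 286 and 235 in expanded cells, and 72 and 60 in plasmablasts. Per length, the stage means were 0.102 RPKM after 10 h, 0.385 after 33 h, 1.5 ± 0.0159 in expanded cells and 0.546 ± 0.139 in plasmablasts, with no overlap between neighbouring stages from 3 h onwards. *Ahrr* was thus a gene of low level that peaked in expanded B cells. From 3 to 10 h the pooled counts gave a 5.91-fold higher level after 10 h (95% interval of counting error only, 2.15 to 22.7; glmTreat adjusted p = 0.015). This call was lost without 3 h replicate 2 (log2 1.53, adjusted p = 0.2) and without 10 h replicate 1 (2.29, adjusted p = 0.066). *Ahrr* rose again from 10 to 33 h by 1.88 ± 0.34 (adjusted p = 0.0036) and from 33 h to expanded cells by 1.97 ± 0.26 (adjusted p = 0.00066). *Ahr* fell in the first of these steps and was higher in expanded cells than after 33 h. *Ahr* exceeded *Ahrr* 67.8 ± 10.2 times in RPKM after 10 h, 2.47 ± 0.465 times after 33 h, 1.4 ± 0.068 times in expanded cells and 13.1 ± 1.88 times in plasmablasts, where *Ahrr* was lower by a log2 difference of -1.47 ± 0.26 than in expanded cells.

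*Tiparp* (chr3:65528447-65555518) encodes an ADP-ribosyltransferase that is induced by AHR and modifies it. It measured 7.82 and 6.75 RPKM in naive cells, 9.6 and 12.3 after 3 h, 15.1 and 15.3 after 10 h, 15.9 and 16.9 after 33 h, 17.2 and 16.8 in expanded cells, and 31 and 32.2 in plasmablasts. Each stage mean lay above that of the stage before, with 33 h and expanded cells overlapping, and plasmablasts stood above the other stages without overlap. *Tiparp* was not DE by glmTreat at the 4 transitions tested. From naive to 3 h the difference was 0.59 ± 0.12 (adjusted p = 0.39, or 0.037 without 3 h replicate 1, with a difference of 0.76), and from 3 to 10 h it was 0.46 ± 0.12 (adjusted p = 0.96). The test against no change, the quasi-likelihood F-test, gave adjusted p = 0.00053 and 0.0035 for these steps. Plasmablasts held 1.86 times the RPKM of expanded cells, a log2 difference of 0.89 ± 0.11. The first 968 bases of the gene overlap a long noncoding RNA, *4931440P22Rik*, and whether counting used strand is not given in the sources used here.

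The 250 bases before the start sites of *Ahrr* and *Tiparp* are shown because both genes are known targets of AHR and differ in course. RefSeq promoter sequences (GRCm38.p6) matched 4 of the 6 genes, and the core of the AHR and ARNT binding motif, GCGTG, was searched on both strands. Capitals mark it as GCGTG on the strand shown and as CACGC for the other strand. *Ahrr* is shown for chr13:74292332-74292581, minus strand, and *Tiparp* for chr3:65528197-65528446, plus strand.
Ahrr: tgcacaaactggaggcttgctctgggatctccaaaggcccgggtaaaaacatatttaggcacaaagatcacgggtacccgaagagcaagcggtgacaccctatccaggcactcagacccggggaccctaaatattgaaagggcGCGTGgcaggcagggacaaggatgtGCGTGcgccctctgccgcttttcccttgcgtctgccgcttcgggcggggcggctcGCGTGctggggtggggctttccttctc
Tiparp: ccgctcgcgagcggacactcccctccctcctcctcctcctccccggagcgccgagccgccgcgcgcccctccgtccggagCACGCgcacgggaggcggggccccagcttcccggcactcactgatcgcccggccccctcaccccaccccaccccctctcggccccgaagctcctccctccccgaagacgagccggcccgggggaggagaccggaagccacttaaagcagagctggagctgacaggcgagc
The *Ahrr* window held 3 copies, beginning 107, 82 and 27 bases before the start site. The *Tiparp* window held 1 copy on the other strand, 170 bases before the start, *Arnt* held 1 copy and *Kmo* none. Of 32851 promoter windows of this length, 28.2% held at least 1 copy, 8.63% at least 2 and 2.77% at least 3. These are letter matches and do not show that the receptor bound there.

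*Kmo*, the kynurenine hydroxylase (chr1:175632193-175660853), was highest in naive B cells. It measured 111 and 101 RPKM there, the 95th percentile of tested genes, and 14.5 and 15.7 RPKM after 3 h. It then stood at 30.1 and 27.4 RPKM after 10 h, 29.1 and 23.4 after 33 h, 30.8 and 28.2 in expanded cells, and 3.09 and 2.74 in plasmablasts. Naive cells lay above and plasmablasts below all other libraries, and the 10 h, 33 h and expanded stages overlapped. *Kmo* fell from naive to 3 h by 2.81 ± 0.12 (adjusted p = 2.1e-09) and rose from 3 to 10 h by 0.92 ± 0.12 (adjusted p = 0.006). The next steps gave -0.13 ± 0.11 and 0.17 ± 0.11 (adjusted p = 1 for both). In plasmablasts *Kmo* was 3.34 ± 0.13 log2 units below expanded cells, that is at a level 10.1 times lower. Myeloid and erythroid markers moved with the first fall. Between the naive replicates, the myeloid sum differed as 321 to 144 CPM while *Kmo* differed as 111 to 101 RPKM. Their part in the fall was not tested.

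*Kynu*, kynureninase (chr2:43555258-43683048), followed a different early course. It measured 19.1 RPKM in both naive libraries, 21.1 and 26.1 after 3 h, and 33.2 and 37.4 after 10 h. Thereafter it measured 15.1 and 14 RPKM after 33 h, 9.12 and 8.35 in expanded cells, and 0.093 and 0.0516 in plasmablasts, the latter from 6 and 4 counts. No neighbouring stages in this order overlapped, and the highest stage mean was 488 times the lowest. The differences from naive to 3 h (0.31 ± 0.12) and from 3 to 10 h (0.58 ± 0.12) were not called by glmTreat (adjusted p = 1 for both). The F-test against no change gave adjusted p = 0.031 and 0.00083 for these steps. With library size alone glmTreat called the rise from 3 to 10 h (0.9, adjusted p = 0.012). From 10 to 33 h *Kynu* fell by 1.27 ± 0.12 (adjusted p = 0.00011), in the same step as *Ahr*. Expanded cells were 0.74 ± 0.12 log2 units below 33 h cells. Plasmablasts were then 6.93 ± 0.4 log2 units below expanded cells, and pooled counts gave a level 125 times lower (95% interval of counting error 67.6 to 260). Myeloid markers summed to 39.3 and 37.3 CPM in expanded cells, mostly *Itgam* and *Adgre1* with *Lyz2* at 0, and to 0.466 and 0.811 CPM in plasmablasts, with 7 of 11 at 0. Their part in the difference was not tested.

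**Figure D1:**
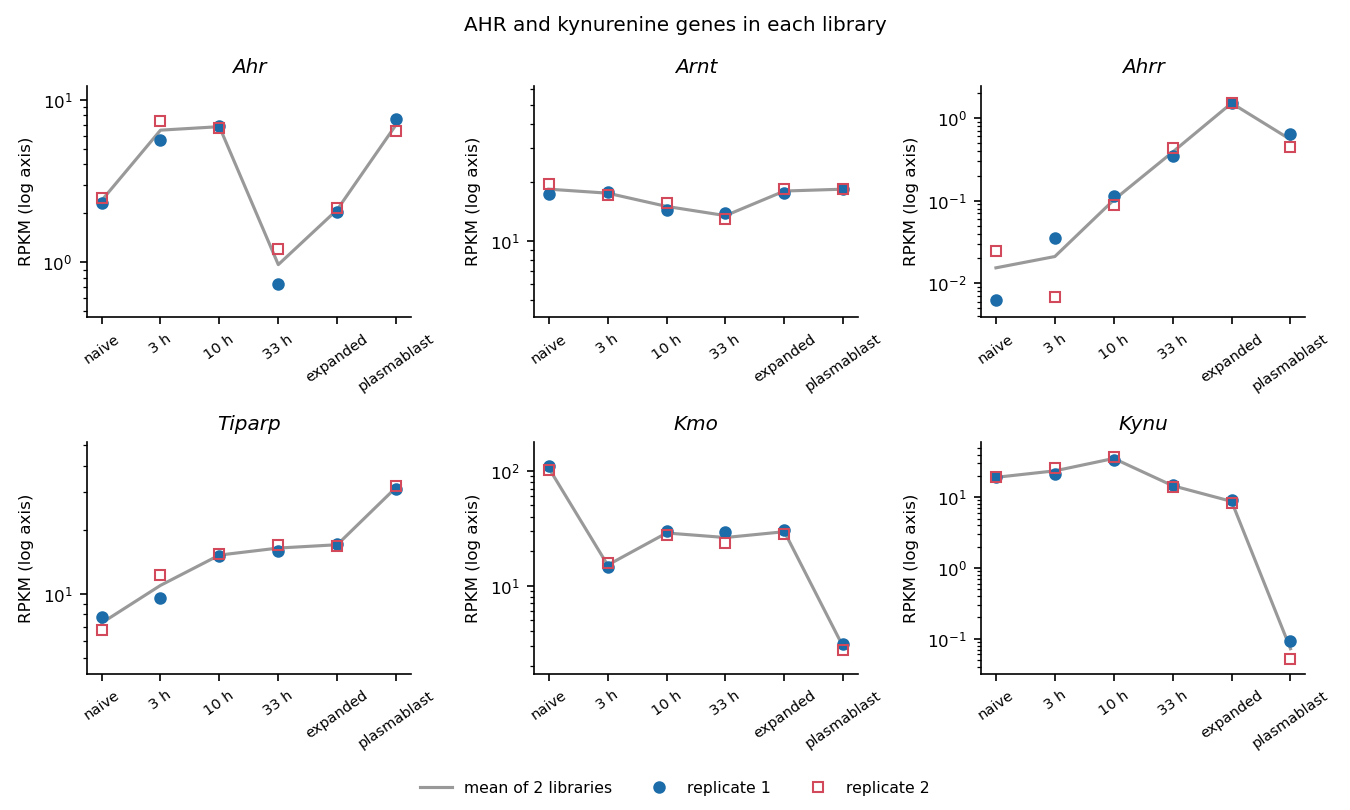
RPKM of the 6 genes (log axis, a different range in each panel) at the 6 stages, with a point for each of the 2 libraries and a line through the means. *Ahr* is low after 33 h between 2 high phases, *Ahrr* climbs from 1 to 3 counts to its peak in expanded cells, *Arnt* stays within 1.36-fold, and *Kmo* and *Kynu* end at 2.91 and 0.0723 RPKM in plasmablasts.

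At most 3 of the 6 genes were called at any transition. From naive to 3 h, 1 of 6 rose (*Ahr*) and 1 fell (*Kmo*), where 21.0% of all tested genes rose and 24.3% fell. From 3 to 10 h, *Ahrr* and *Kmo* rose and none fell, against 17.4% and 13.4% of all tested genes. From 10 to 33 h, *Ahrr* rose while *Ahr* and *Kynu* fell, against backgrounds of 10.1% and 4.45%. From 33 h to expanded cells 1 of the 4 genes tested, *Ahrr*, rose and none fell, against 6.94% and 3.66%. From expanded cells to plasmablasts *Ahr*, *Tiparp* and, by 0.03 ± 0.09, *Arnt* were higher, and *Ahrr*, *Kmo* and *Kynu* were lower. The direction of *Arnt* turned (-0.31) with library size alone. In that step 13.9% of all tested genes rose and 12.2% fell, and nothing is read from the 6 genes against it. With library size alone the median of all genes shifted by -0.21 from naive to 3 h, by 0.33 from 3 to 10 h and by -0.34 from expanded cells to plasmablasts. Calls over all genes then changed from 2674 up and 3100 down to 2091 and 3716, from 2221 and 1711 to 3432 and 1004, and from 1776 and 1553 to 1181 and 2953.

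**Figure D2:**
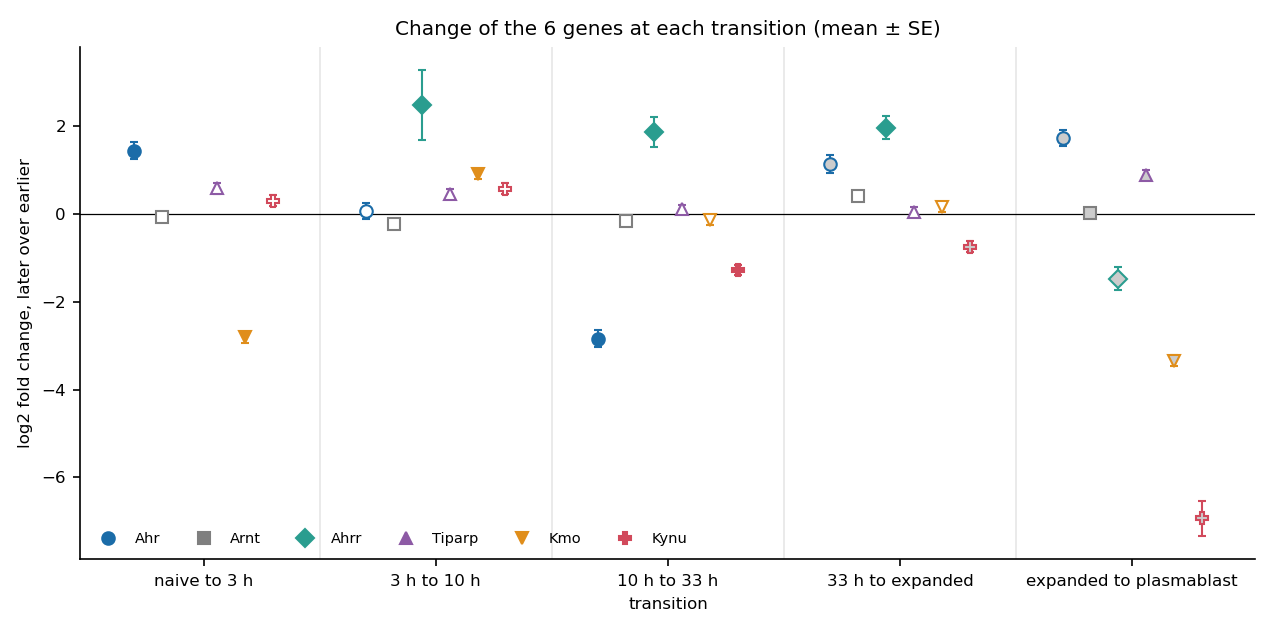
Log2 fold change (later over earlier stage) with its SE for each gene at the 5 transitions. Filled symbols are DE by glmTreat, white ones are not, and grey ones were used to choose the genes and were not tested. *Ahrr* is left out from naive to 3 h, where it had at most 3 counts per library. *Ahr* and *Kynu* lie on the same side of 0 from 10 to 33 h (-2.84 and -1.27) and on opposite sides from expanded cells to plasmablasts (1.73 and -6.93).

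The enzymes can be set side by side within each library. The level of *Kmo* relative to *Kynu* was 5.56 ± 0.379 in naive cells, 0.645 ± 0.0601 after 3 h, 0.82 ± 0.124 after 10 h, 1.79 ± 0.18 after 33 h and 3.38 ± 0.0063 in expanded cells. *Kynu* transcripts thus exceeded those of *Kmo* per length in the 4 libraries of 3 and 10 h and in no others. In plasmablasts the ratio was 33.2 and 53.1, on 6 and 4 counts of *Kynu*.

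Of 17 genes for the proteins that hold AHR or act with it on DNA, all tested, 6 rose and none fell from naive to 3 h, where 21.0% of all genes rose and 24.3% fell. Their median log2 change was 0.42 against -0.03 over all genes. The chaperone *Hsp90aa1* measured 51.6 and 56.4 RPKM in naive cells and 238 and 204 after 3 h (2.03 ± 0.11, adjusted p = 3.2e-08). *Ptges3*, which encodes p23, measured 5.44 and 4.68 and then 40 and 24.4 RPKM (2.66 ± 0.2, adjusted p = 5.5e-07), and *Src*, a kinase of the complex, rose by 4.28 ± 0.43 from a mean of 0.0705 RPKM (adjusted p = 6.8e-07). *Src* fell again from 10 to 33 h by 2.6 ± 0.35 (adjusted p = 0.00022). It was the only call of the list in that step, where 10.1% of all genes rose and 4.45% fell. From 3 to 10 h, 0 rose and 3 fell (median -0.56 against 0.02), where 17.4% of all genes rose and 13.4% fell. *Relb*, an NF-κB subunit that can pair with AHR, fell by 1.34 ± 0.1 (adjusted p = 1e-05). The calls of *Src* (-1.31, or -1.03 with adjusted p = 0.099 without 3 h replicate 2, and -1.12 with 0.086 without 10 h replicate 1) and *Nrip1* (-0.9, or -0.61 with adjusted p = 0.47 without 3 h replicate 1, and -0.74 with 0.25 without 10 h replicate 1) were lost without those libraries. Library size alone also ended both (adjusted p = 0.075 and 0.54), and the call of *Nrip1* was further lost with a replicate block (0.05), a fit to only the 4 libraries (0.11) and the removed genes kept (0.056). From expanded cells to plasmablasts 2 rose and 2 fell (median -0.31 against -0.05), where 13.9% of all genes rose and 12.2% fell. The coactivator *Ncoa2* rose from 11.7 and 12.9 to 33.8 and 34.3 RPKM (1.47 ± 0.13, adjusted p = 2.1e-05) and *Nrip1* from 1.75 and 2.01 to 5.85 and 6.14 RPKM (1.68 ± 0.18, adjusted p = 6.1e-05). *Hsp90aa1* fell by 1.32 ± 0.11 (adjusted p = 1.8e-05).

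The battery of known AHR targets held 11 other genes, of which 5 were tested and 6 had few or no counts. *Cyp1a1*, the monooxygenase gene most used to read AHR activity, had 0 and 1 counts in naive cells, 4 and 32 after 3 h, 7 and 5 after 10 h, 16 and 11 after 33 h, 138 and 142 in expanded cells, and 88 and 49 in plasmablasts. It was thus low before day 4 except in 3 h replicate 2. *Cyp1a1* rose from 33 h (0.099 and 0.113 RPKM) to expanded cells (1.24 and 1.53 RPKM) by 3.71 ± 0.53 (adjusted p = 3e-04), and the difference from expanded cells to plasmablasts was -0.51 ± 0.4 (adjusted p = 0.76). From naive to 3 h its pooled counts of 1 and 36 gave a ratio of 44.4 (95% interval of counting error 7.47 to 1800, adjusted p = 0.0026), a call lost without 3 h replicate 2 (adjusted p = 0.095). Its fall from 3 to 10 h (-2.32, adjusted p = 0.033) was lost without that library as well (-0.65, adjusted p = 0.88), without 10 h replicate 1 (-2.39, 0.12) and without 10 h replicate 2 (-2.26, 0.1). *Cyp1b1*, named after its values were seen, had at most 3 counts in each library up to 33 h, 49 and 39 in expanded cells, and 3 and 7 in plasmablasts. *Cyp1b1* passed the filter on low counts only through its expanded libraries, so no p-value is given for its differences from that stage. Its pooled counts were 22.4 times higher in expanded than in 33 h cells (95% interval of counting error 9.22 to 70.5). It was lower by 2.62 ± 0.54 in plasmablasts than in expanded cells. Its fitted log2 change to expanded cells, 4.38, became 3.75 without 33 h replicate 1 and 4.97 without 33 h replicate 2. *Ahrr*, *Cyp1a1* and *Cyp1b1* thus each had their highest stage mean in expanded B cells, with *Cyp1a1* overlapping plasmablasts, a stage at which *Ahr* was at 2.11 ± 0.0798 RPKM, below its level after 3 h, 10 h and in plasmablasts.

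Other genes of the battery followed other courses. *Nqo1*, a quinone reductase that also responds to NRF2, had 1 count in each naive library, 9 and 45 after 3 h, and 373 and 375 after 10 h. Its 3 h level exceeded the naive one by a counting ratio of 33.3 (95% interval 8.78 to 282, adjusted p = 0.00011), and the fitted log2 change of 4.86 became 3.74 without 3 h replicate 2. It rose from 3 to 10 h by 3.03 ± 0.32 (4.14 without 3 h replicate 2), with adjusted p = 9.7e-06, and stayed between 2.66 and 4.45 RPKM from 33 h onwards. *Nqo1* therefore reached its highest mean after 10 h. *Ahr* was at 6.49 RPKM after 3 h and 6.82 after 10 h, where *Nqo1* was at 0.638 and 5.69 RPKM. From 10 to 33 h *Nqo1* differed by -0.5 ± 0.24 (glmTreat adjusted p = 0.98), while *Ahr* fell by 2.84 ± 0.19. *Xdh*, xanthine dehydrogenase, measured 1.34 and 1.16 RPKM in naive cells and 0.146 and 0.165 after 3 h, a fall of 2.99 ± 0.34 (adjusted p = 9.6e-06). It fell further from 3 to 10 h by 2.91 ± 0.59 (-3.67 without 10 h replicate 1), with adjusted p = 0.0013. Its counts of 9 and 10 in expanded cells and 0 and 1 in plasmablasts gave a ratio of 13.5 (95% interval 2.14 to 560), with a call that was lost without plasmablast replicate 1 (adjusted p = 0.11) or expanded replicate 2 (0.059).

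**Figure D3:**
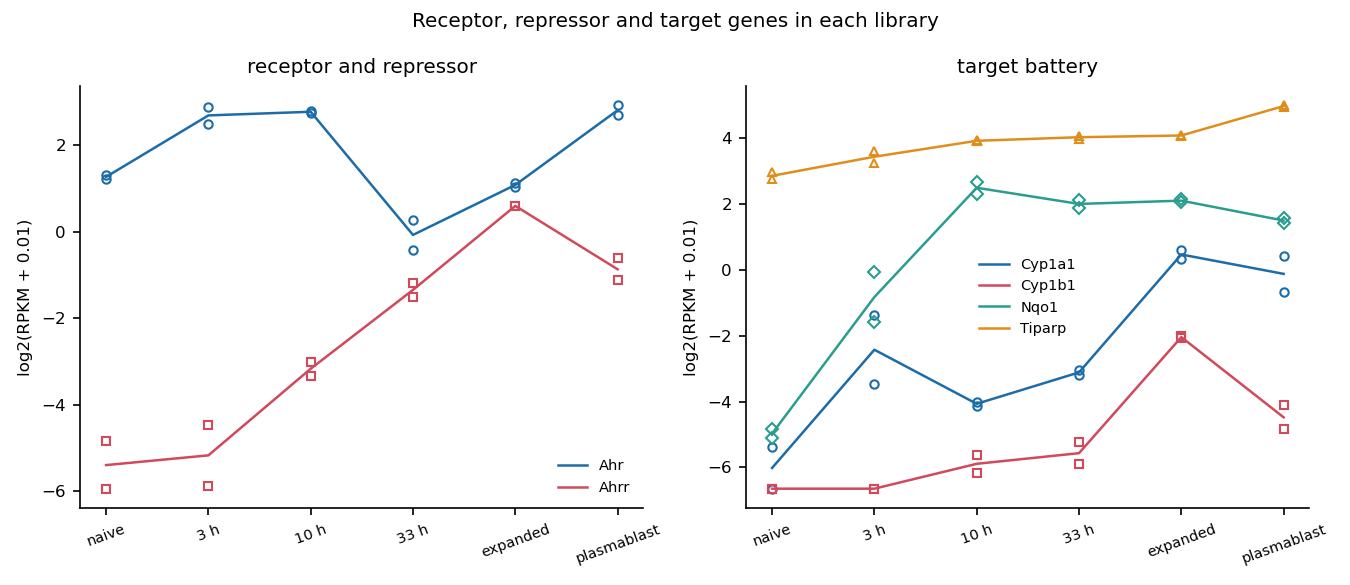
Log2(RPKM + 0.01) of the receptor and its repressor (left) and of 4 genes of the target battery (right) at the 6 stages, with 2 libraries as symbols and a line through their means. *Ahrr* and *Cyp1b1* are highest in expanded cells, *Cyp1a1* is high in expanded cells and plasmablasts with overlapping libraries, *Nqo1* is highest after 10 h and *Tiparp* in plasmablasts.

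Of 11 other genes of the kynurenine pathway, 7 were tested. From naive to 3 h none rose and 3 fell, where 21.0% of all genes rose and 24.3% fell. The median was -0.54, or -2.21 over the 5 genes above 3 counts in some library of both stages, against -0.03 over all genes. *Haao* measured 59.7 and 59.5 RPKM in naive cells and 11.6 and 14.1 after 3 h (-2.21 ± 0.18, adjusted p = 1.2e-06). The transaminase *Kyat1* fell from 3.42 and 3.12 to 0.406 and 0.41 RPKM (-3 ± 0.22, adjusted p = 1e-07) and *Kyat3* from 2.2 and 2.47 to 0.521 and 0.453 RPKM (-2.27 ± 0.25, adjusted p = 1e-05). Both rose again by 10 h, *Kyat1* by 2.52 ± 0.22 (adjusted p = 2e-06) and *Kyat3* by 3.73 ± 0.24 (adjusted p = 9.1e-08), to 2.3 and 2.4 and to 7.05 and 5.72 RPKM. *Kyat1* thus stayed below its naive libraries, and *Kyat3* stood above its own. Myeloid and erythroid markers were lower after the first step, as given above, and their part in these falls was not tested. From 3 to 10 h, 3 of the list rose and 1 fell, where 17.4% of all genes rose and 13.4% fell. The fall of *Afmid*, the formamidase before KMO (-1.04 ± 0.2, adjusted p = 0.022), was lost without 3 h replicate 2 (-0.63, 0.38), 10 h replicate 1 (-1.02, 0.074) or 10 h replicate 2 (-1.04, 0.059). The third riser, *Got2*, a mitochondrial transaminase outside the rule for named genes and chosen after its values were seen, stood at 45.6 and 82 RPKM (0.84 ± 0.11, adjusted p = 0.016). Its call was lost without 3 h replicate 1 (0.097) or 10 h replicate 1 (0.086). None of the 7 was called from 10 to 33 h, where 10.1% of all genes rose and 4.45% fell.

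At the plasmablast step *Haao* was the only gene of the list that fell. It measured 19.3 and 16.6 RPKM in expanded cells and 0.104 and 0.432 in plasmablasts, from 3 and 15 counts (-5.98 ± 0.43, adjusted p = 1.5e-08, with -5.34 and -7.37 without plasmablast replicate 1 and 2). *Kmo* and *Kynu*, whose values in this step are a description, also had their lowest levels in plasmablasts. *Kyat1* rose by 1.03 ± 0.15 (adjusted p = 0.0063), a call lost with library size alone (0.69, adjusted p = 0.22). *Kyat3* (11.3 and 10.9 RPKM) and *Got2* (151 and 166 RPKM) gave -0.27 ± 0.15 and 0.04 ± 0.11 and were not called. The list had 1 rise and 1 fall in all, with a median of 0.04 against -0.05, where 13.9% of all genes rose and 12.2% fell. The genes for the entry and the exit of the pathway were near the floor. *Ido1*, named after its values were seen, had at most 5 counts before day 4 and 22 and 19 in expanded cells, and its call there (3.02 ± 0.82, adjusted p = 0.022) was lost without 33 h replicate 1 (1.94, 0.29), expanded replicate 1 (0.1) or expanded replicate 2 (0.1). The other dioxygenases, *Ido2* and *Tdo2*, and *Qprt*, which leads to NAD, had at most 11, 6 and 2 counts in any library.

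**Figure D4:**
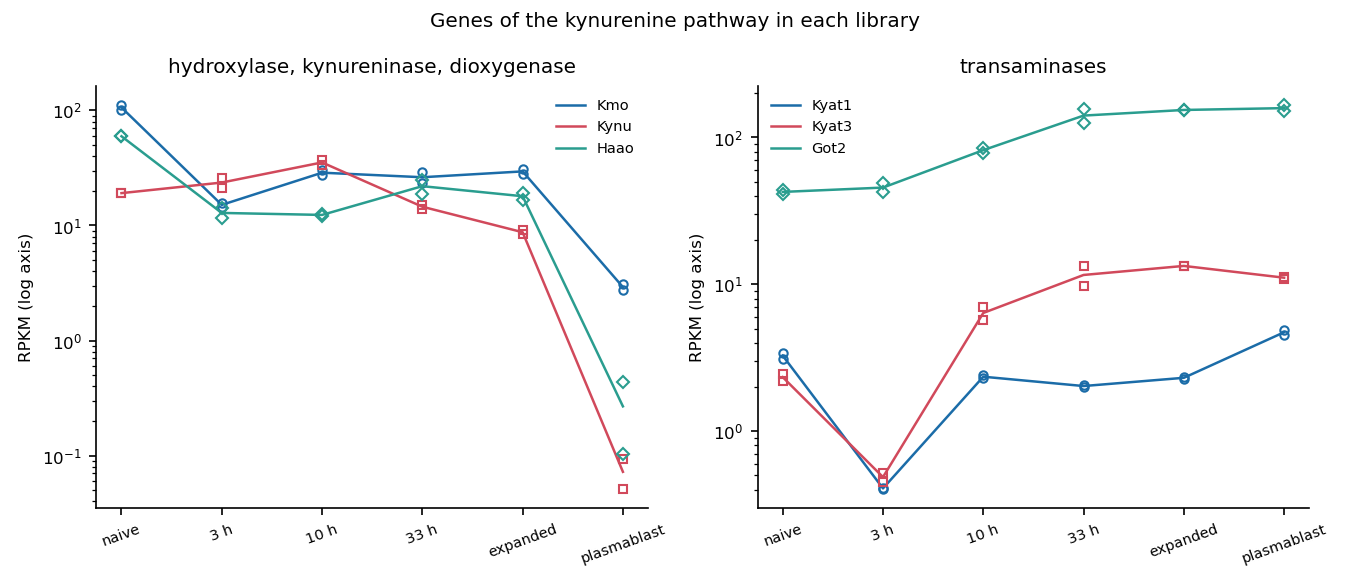
RPKM (log axis) of *Kmo*, *Kynu* and *Haao* (left) and of the transaminases *Kyat1*, *Kyat3* and *Got2* (right) at the 6 stages, with 2 libraries as symbols and a line through their means. *Kmo*, *Kynu* and *Haao* have their lowest means in plasmablasts (2.91, 0.0723 and 0.268 RPKM), where the transaminases stand at 4.72, 11.1 and 158 RPKM.

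Of 11 genes of tryptophan uptake and its other uses 6 were tested. From naive to 3 h 2 rose and none fell, from 3 to 10 h none rose and 2 fell, from 10 to 33 h 1 rose, and in plasmablasts 2 rose and 1 fell, so that calls occurred at 4 of the 5 transitions. The shares of all genes that rose and fell were 21.0% and 24.3% from naive to 3 h and 17.4% and 13.4% from 3 to 10 h. They were 10.1% and 4.45% from 10 to 33 h and 13.9% and 12.2% in plasmablasts. Against these, counts this small show nothing particular to the list. *Slc7a5*, the large neutral amino acid transporter that carries tryptophan and kynurenine, rose from 13.4 and 13.5 to 149 and 207 RPKM (3.73 ± 0.16, adjusted p = 6.4e-09). *Il4i1*, an amino acid oxidase that acts on tryptophan, rose from 7.04 and 6.88 to 87.8 and 73.8 RPKM (3.54 ± 0.22, adjusted p = 2.4e-07) and returned to 6.19 and 6.48 RPKM after 10 h (-3.67 ± 0.22, adjusted p = 5.5e-07). The other fall of that step, *Slc7a8*, rested on 13 counts against 3 and was lost without 3 h replicate 1 (adjusted p = 0.22) or 10 h replicate 2 (0.13). From 10 to 33 h the transporter *Slc16a10* rose by 1.39 ± 0.17 (adjusted p = 0.00082). In plasmablasts *Slc3a2*, the heavy chain of the transporter, rose from 75.9 and 82.9 to 495 and 552 RPKM (2.72 ± 0.12, adjusted p = 1.7e-08), *Slc7a8* from 0.0869 and 0.171 to 3.23 and 3.84 RPKM (4.8 ± 0.36, adjusted p = 2.8e-07), and *Il4i1* fell from 4.99 and 4.68 to 1.53 and 1.05 RPKM (-1.92 ± 0.29, adjusted p = 0.00096). *Slc7a5* was at 144 and 151 RPKM there and was not called.

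Of 8 tested genes of NAD synthesis, 2 rose and 1 fell from naive to 3 h, where 21.0% of all genes rose and 24.3% fell. *Nampt*, of the salvage route, rose from 12.3 and 12.5 to 53.3 and 51.1 RPKM (2.07 ± 0.09, adjusted p = 5.5e-09), and *Nadk*, NAD kinase, from 33.7 and 36.4 to 67.8 and 91.3 RPKM (1.18 ± 0.12, adjusted p = 7.9e-05). *Nnt*, a mitochondrial transhydrogenase, rose from 3 to 10 h (0.91 ± 0.11, adjusted p = 0.0047) and again in plasmablasts (8.38 and 7.79 to 18 and 17.7 RPKM, 1.14 ± 0.1, adjusted p = 1e-04). In this list 2 genes rose and 0 fell from 3 to 10 h, where 17.4% of all genes rose and 13.4% fell. In plasmablasts 2 rose and 1 fell, where 13.9% of all genes rose and 12.2% fell. Further calls, of 4 genes, were each lost without 1 or more libraries. They were *Nadsyn1* from naive to 3 h (adjusted p up to 0.087), *Nmrk1* from 3 to 10 h (up to 0.07), and *Naprt* and *Nadk* in plasmablasts (up to 0.089 and 0.19). Of 13 bHLH-PAS relatives 6 were tested, and *Epas1*, a hypoxia-inducible factor, rose in plasmablasts from 0.117 and 0.191 to 1.46 and 1.76 RPKM (3.4 ± 0.38, adjusted p = 2.1e-05). *Epas1* fell from 3 to 10 h (-3.45 ± 0.79, adjusted p = 0.0017, -2.63 to -4.36 with a library left out), while its rises after 3 h and in expanded cells were lost without some libraries (adjusted p up to 0.19 and 0.16). *Clock* rose by 1.09 ± 0.16 after 3 h (adjusted p = 0.0022), and its fall by 1 ± 0.16 after 10 h was lost without 3 h replicate 1 (0.17) or 10 h replicate 1 (0.059).

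Over all 6 lists, 72 of 73 genes were kept and 49 were tested. Of these, 14 rose and 7 fell from naive to 3 h, 7 and 11 from 3 to 10 h, 1 and 1 from 10 to 33 h, 4 and 1 from 33 h to expanded cells, and 8 and 8 from expanded cells to plasmablasts. Their median log2 changes were 0.21, -0.13, -0.13, 0.03 and -0.11, against -0.03, 0.02, -0.02, -0.02 and -0.05 over all tested genes. Of all tested genes, 21.0% and 24.3%, 17.4% and 13.4%, 10.1% and 4.45%, 6.94% and 3.66%, and 13.9% and 12.2% rose and fell at these transitions in the same order, and nothing particular to the lists is read from their counts. The 4 rises to expanded cells and the 8 falls to plasmablasts each include *Cyp1b1*, which passed the filter only through its expanded libraries.

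The genes whose courses were most like each of the 6 over the 12 libraries are given as a description, by Pearson's r of log2 RPKM, computed with a prior count of 2 reads, among 8608 genes of sufficient level. The points share 6 stages, so a few stages set each r. Those for *Ahr* were *Cebpb* (r = 0.95), *Lmo4* (0.932) and *Rab18* (0.931). For *Ahrr* they were *Ranbp9* (0.978), *Ccdc77* (0.976) and *Lypla1* (0.974), for *Arnt* *Dgke* (0.926), *Gse1* (0.921) and *Spata13* (0.898), and for *Tiparp* *Mrpl37* (0.991), *Rabl6* (0.988) and *Sec13* (0.987). Those for *Kynu* were *Wars2* (0.993), *Arhgap24* (0.991) and *Cnpy3* (0.987), and those for *Kmo* were *Evl* (0.993), *Tfeb* (0.992) and *Tnfaip8l2* (0.989). Among the 6 genes themselves, *Kynu* and *Kmo* were the most alike (r = 0.81), *Ahrr* and *Tiparp* followed (0.74), and *Ahr* and *Kynu* had r = -0.28. The most opposed courses were those of *Tiparp* against *Kmo* (r = -0.85) and against *Kynu* (-0.77).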

How the data were processed

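The deposited values were raw counts per gene in 12 libraries. Per the labels and the study's methods, the authors prepared TruSeq libraries, used Rsubread 1.28.0 to align read pairs to mm10, and made the counts with featureCounts and its own Entrez gene models, without normalization. The strand setting was not given in the sources used here. Genes of the X and Y chromosomes, mitochondrial and ribosomal RNA genes, immunoglobulin segments and genes without annotation were removed, which left 23700 genes with 84.0% to 90.6% of counts. In R 4.3.3, edgeR 4.0.16 (TMM, robust quasi-likelihood fit, one-way layout over all stages) compared consecutive stages with glmTreat against a fold change of 1.5, with Benjamini-Hochberg adjustment over 12750 genes at 0.05. RPKM used the deposited lengths, and RPKM and CPM both used the TMM-scaled library sizes of the genes that passed the filter. At most 3 counts per library was taken as the floor. DESeq2 1.42.0, other scalings and filters, and fits without each library were alternatives. Steps were tested on simulated data. Replicates were 2 per stage, and p-values and SEs measure only the spread between replicates. That spread was estimated over all 12 libraries and moderated across genes, not from the 2 compared stages alone. An exact permutation test of 2 against 2 cannot go below 0.333. Libraries of equal replicate number did not deviate together (15 correlations of replicate deviations between stages, -0.14 to 0.08), and they were not treated as pairs. Whether they shared mice or cultures is not given in the sources used here. The 6 genes and all lists were chosen with earlier results of these data known. Named list genes were up to 3 DE genes per list and transition with the largest change and at least 1 RPKM in some stage, and the 3 genes most like each of the 6. Some genes of the lists are not reported here by name.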

Additional observations from a re-analysis of the deposited data

How the results depend on the processing

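The rise of *Ahr* to 3 h and its fall by 33 h, the fall of *Kmo* to 3 h and its rise by 10 h, the fall of *Kynu* by 33 h and the rises of *Ahrr* at 33 h and in expanded cells kept their direction and their call under all alternatives in which the gene was tested. With a test against no change in place of a 1.5-fold threshold, more of the 6 genes were called: 4 with DESeq2's Wald test and 4 with the F-test from naive to 3 h (2 by glmTreat), 5 and 4 from 3 to 10 h (2), and 2 and 2 from 33 h to expanded cells (1). Requiring 10 counts in every library removed *Ahrr* and *Kynu* and left 1 call from 3 to 10 h, 1 from 10 to 33 h and 0 from 33 h to expanded cells. A fit to only the 4 libraries left 1 call from 3 to 10 h, and leaving out a library left 1 or 2. For the pathway lists, the Wald test and the F-test called 35 and 37 genes from naive to 3 h (21 by glmTreat), 35 and 36 from 3 to 10 h, 22 and 21 from 10 to 33 h, 15 and 14 from 33 h to expanded cells, and 25 and 27 from expanded cells to plasmablasts. Requiring 10 counts gave 13 from naive to 3 h, 1 from 10 to 33 h, 0 from 33 h to expanded cells and 9 in plasmablasts, and no filter gave 7 from 10 to 33 h. Without a library, the counts ran from 2 to 4 from 10 to 33 h and from 3 to 5 from 33 h to expanded cells. The list counts at the steps to and from expanded cells include *Cyp1b1* wherever it was tested. Directions turned only for values near 0 or at the floor. *Ahrr* from naive to 3 h ran from -0.96 to 1.4 without a library, and *Arnt* from -0.15 to 0.02. *Ahr* from 3 to 10 h was -0.01 with DESeq2's size factors and -0.01 with the Wald test, and -0.11 to 0.29 without a library. *Arnt* from 3 to 10 h was 0.11 with library size alone. *Kmo* from 10 to 33 h ran from -0.29 to 0.03 without a library. *Arnt* in plasmablasts was -0.31 with library size alone, -0.01 with no filter and -0.01 to 0.06 without a library. Under library size alone and DESeq2's size factors, 25 of the stage means of RPKM moved by more than the replicate SD and 47 did not. The causes were not tested. A replicate block, which treats libraries of equal replicate number as paired, left 2, 2, 3 and 1 of the 6 genes called at the first 4 transitions, as without it. Depth limits *Ahrr* before 10 h and *Kynu* in plasmablasts, where counts were 1 to 6 per library.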

Other observations

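*Crebbp*, a coactivator in the list of AHR cofactors, measured 21.8 RPKM in 3 h replicate 1 and 3.84 RPKM in 3 h replicate 2, against 1.17 to 4.85 RPKM in the other 10 libraries, and it was chosen here after its values were seen.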
